A study of Mus musculus with 30 samples.

Results

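The 9 complement genes C1qa, C1qb, C1qc, C2, C3, C4b, Cfb, Cfp and Serping1 were followed in J774A.1 cells, a mouse macrophage-like tumour line. They were taken by matching their symbols to the Ensembl identifiers of the deposited count table, and all 9 of 9 were found among its 54146 listed genes. The study asked what a transposable element in the first intron of Dicer1, a B2_Mm2 SINE, does for the response to interferon gamma (IFNG). It compared 3 wild-type clones (WT1, WT2 and WT3), which were grown from single cells and carried no edit, with 2 clones (KO1 and KO2) in which CRISPR-Cas9 had removed the element from both chromosomes. Each clone was untreated (UT) or received 100 ng/mL IFNG for 4 h, with 3 polyA RNA-seq libraries for each clone and treatment and 30 libraries in all. Each knockout clone is 1 clone, and the wild-type clones did not pass through electroporation as the knockout clones did, so clone, editing procedure and genotype cannot be told apart for any single clone. Technical replicates were merged before counting, and the sources used here do not say whether the 3 libraries of a group came from separate cultures, so the p-values measure only the spread between these libraries, which may be technical.

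The 9 genes cover steps of the classical and alternative pathways of complement, and none is from the terminal pathway, which forms pores. Complement is the set of plasma proteins that tags particles and damaged cells for uptake and can open pores in membranes. In the classical pathway the C1q protein, built from the chains of C1qa, C1qb and C1qc, binds antibody or a cell surface, and the attached proteases C1r and C1s then cut C4 and C2 to form an enzyme that cleaves C3. In the alternative pathway factor B (Cfb) forms another such enzyme on bound C3b, and properdin (Cfp) holds it together. C1 inhibitor (Serping1) blocks C1r and C1s. Most plasma complement comes from the liver, but C1q is made largely by macrophages and their relatives, and properdin by myeloid cells.

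The libraries held 15566122 to 37992642 counted fragments. Levels are given in CPM, counts scaled to a common library total by trimmed mean of M-values, and the 3 counts taken as the lowest readable signal were worth 0.0809 to 0.190 CPM, depending on the library. All 30 pairs of libraries within a group differed by more than counting noise (chi-square over its degrees of freedom, 1.95 to 19.5). Dicer1 exons lie outside the deleted element, so its level does not test the deletion itself: its mean rose from 105 to 136 CPM in WT1, from 128 to 159 CPM in WT2 and from 123 to 161 CPM in WT3, while KO1 gave 71.5 and 75.0 CPM and KO2 gave 105 and 99.6 CPM. Its IFNG response was lower in the knockout clones by 0.36 ± 0.05 on the log2 scale (SE; adjusted p = 5.53e-05). Irf1, an early interferon target used as a treatment check, rose by 4.97 to 5.33 log2 units in the 5 clones. All 10 macrophage markers examined averaged 1 CPM or more, and no marker of hepatocytes, B cells or epithelium did. In bulk RNA, fewer cells of a type and less RNA per cell cannot be told apart.

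The 3 C1q genes lie side by side on the minus strand of chromosome 4 (mm10), C1qb at 136880129 to 136886187, C1qc at 136889804 to 136893065 and C1qa at 136895917 to 136898803, within 18.675 kb. C4b (34728380 to 34743882), Cfb (34856374 to 34862518) and C2 (34862604 to 34898265) lie on the minus strand of chromosome 17 within 169.886 kb, in the major histocompatibility complex. C3 lies elsewhere on chromosome 17 (57203970 to 57228136), Serping1 on chromosome 2 (84765387 to 84775444) and Cfp on X (20925454 to 20931555). The reference table (RefSeq, build GRCm38.p6) held promoters of 4 of the 9 genes, and not of C1qa, C2, C4b, Cfb or Serping1. The 250 bases before each start are shown because 3 of these genes rose with IFNG and Cfp did not, and capitals mark the matches to the motifs named after them. They are chr4:136886201-136886450 for C1qb, chr4:136892915-136893164 for C1qc, chr17:57228137-57228386 for C3 and chrX:20931556-20931805 for Cfp, each on the minus strand. The starts are those of RefSeq. The counted C1qc gene reaches to 136893065, so part of the C1qc window lies inside that gene.
C1qb: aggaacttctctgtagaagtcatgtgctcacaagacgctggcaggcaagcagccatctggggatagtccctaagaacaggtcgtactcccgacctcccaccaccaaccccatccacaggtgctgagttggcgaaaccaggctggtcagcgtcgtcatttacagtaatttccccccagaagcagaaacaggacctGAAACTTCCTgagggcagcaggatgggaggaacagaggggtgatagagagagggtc
C1qc: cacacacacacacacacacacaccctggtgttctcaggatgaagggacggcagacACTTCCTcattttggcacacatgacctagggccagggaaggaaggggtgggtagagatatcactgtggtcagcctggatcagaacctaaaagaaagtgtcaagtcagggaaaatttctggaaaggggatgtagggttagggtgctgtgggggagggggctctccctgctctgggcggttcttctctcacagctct
C3: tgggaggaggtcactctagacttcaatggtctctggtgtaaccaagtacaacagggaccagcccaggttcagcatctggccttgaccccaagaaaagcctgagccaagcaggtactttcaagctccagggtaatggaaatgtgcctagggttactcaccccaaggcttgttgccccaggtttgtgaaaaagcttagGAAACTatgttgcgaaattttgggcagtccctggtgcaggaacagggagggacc
Cfp: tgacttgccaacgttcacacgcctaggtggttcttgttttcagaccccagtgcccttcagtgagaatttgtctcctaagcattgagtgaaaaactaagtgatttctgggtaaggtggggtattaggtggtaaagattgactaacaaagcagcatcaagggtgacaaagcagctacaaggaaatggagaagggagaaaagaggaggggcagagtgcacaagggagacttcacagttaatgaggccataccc

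Both strands were searched for 3 motifs, which were chosen after the sequences had been seen. The STAT site TTCNNNGAA, found in 7.02% of the 32851 promoter windows in the table, did not occur in the 4 windows. The interferon regulatory factor core GAAACT (13.5% of windows) occurred in C1qb, 56 to 51 bases before the start, and in C3, 54 to 49 bases before it. The ETS core AGGAAGT, bound by factors such as PU.1 and present in 7.69% of windows, occurred on the opposite strand in C1qb at 53 to 47 bases before the start, overlapping the GAAACT match, and in C1qc at 195 to 189 bases before it. The Cfp window held none of the 3. A match is only a match of letters.

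By level per kilobase of exon, the scale on which different genes can be compared, the untreated cells were rich in C1q and poor in most of the rest. C1qb came first in WT1 (310.3 ± 15 CPM per kb, mean ± SD, n = 3) and KO1 (235 ± 14 CPM per kb). C1qa came first in WT2 (307 ± 22 CPM per kb), WT3 (449.9 ± 21 CPM per kb) and KO2 (373 ± 22 CPM per kb), where it overlapped C1qb (346 ± 17 CPM per kb). C1qc and Cfp filled the third and the fourth place, and C3 the fifth, in every group on this length. C3 ran from 6.09 ± 0.599 CPM per kb in untreated WT3 to 57.4 ± 12 CPM per kb in IFNG-treated KO1. C4b, C2, Cfb and Serping1 stayed below 1 CPM per kb in all 30 libraries, and neighbours among them overlapped in many groups. The value of C1qc depends on the length used, since its coding transcript has 1203 bases and all its exons together 1931. Per kilobase of coding transcript, C1qc stood second in WT1, at 253 ± 6.5 CPM per kb against 215 ± 10 for C1qa untreated and 381 ± 11 against 336 ± 23 after IFNG.

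All 3 C1q genes rose with IFNG in every clone. For C1qb the 3 libraries gave 346, 349 and 318 CPM untreated and 527, 551 and 518 CPM after IFNG in WT1. They gave 231, 224 and 202 CPM untreated and 335, 317 and 359 CPM after IFNG in WT2, and 329, 298 and 296 CPM untreated and 476, 489.8 and 471 CPM after IFNG in WT3. In the knockout clones the values were 264, 264 and 238 CPM untreated and 378, 410.3 and 389 CPM after IFNG for KO1. Treated libraries stood above all untreated ones of their clone in each of these. In KO2 they were 355, 388 and 385 CPM untreated and 584, 558 and 516 CPM after IFNG, again with no overlap. Such separation, with every IFNG library above every UT library, was seen in 18.4% of the 12345 genes averaging 1 CPM or more in WT1, 20.2% in WT2, 23% in WT3, 19.1% in KO1 and 21.2% in KO2. The C1qb rise was 0.65 ± 0.06 on the log2 scale in WT1 (SE; edgeR quasi-likelihood test, adjusted p = 2.39e-06), 0.64 ± 0.05 in WT2 (adjusted p = 7.20e-10), 0.65 ± 0.04 in WT3 (adjusted p = 1.07e-09), 0.65 ± 0.05 in KO1 (adjusted p = 4.02e-07) and 0.55 ± 0.05 in KO2 (adjusted p = 1.53e-06).

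C1qc, which encodes the third chain, followed the same course. WT1 gave 308, 310.4 and 296 CPM untreated and 471, 459 and 444 CPM after IFNG. WT2 gave 217, 209 and 194 CPM untreated and 307, 297 and 324 CPM after IFNG. WT3 gave 324, 307 and 291 CPM untreated and 448, 463 and 455 CPM after IFNG. The 3 wild-type clones were thus each separated by treatment, with WT2 the lowest. KO1 gave 176, 179 and 156 CPM untreated and 261, 283 and 264 CPM after IFNG, below all wild-type clones in the untreated state. KO2 gave 297, 328 and 334 CPM untreated and 499.7, 456 and 423 CPM after IFNG. The log2 rise of C1qc was 0.58 ± 0.06, 0.59 ± 0.04 and 0.58 ± 0.04 in WT1, WT2 and WT3, and 0.69 ± 0.06 and 0.52 ± 0.06 in KO1 and KO2 (SE). Its adjusted p was at most 1.15e-05 in each clone.

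C1qa, the first chain, differed more between clones than the other C1q genes. WT1 gave 223, 235 and 214 CPM untreated and 360.3, 366 and 322 CPM after IFNG. WT2 gave 330.1, 335 and 293 CPM untreated and 446, 418 and 464 CPM after IFNG. WT3 gave 493.2, 453 and 457 CPM untreated and 644, 648 and 636 CPM after IFNG, the highest of the 5 clones in both states. The untreated WT3 libraries stood above the treated libraries of WT1 and overlapped those of WT2. KO1 gave 193, 195 and 165 CPM untreated and 310.1, 307 and 276 CPM after IFNG, the lowest in both states, and KO2 gave 363, 394 and 407 CPM untreated and 590.3, 536 and 502 CPM after IFNG. All 5 clones were separated by treatment. The log2 rise of C1qa was 0.63 ± 0.07, 0.49 ± 0.05, 0.47 ± 0.04, 0.72 ± 0.07 and 0.48 ± 0.06 in WT1, WT2, WT3, KO1 and KO2 (SE), with an adjusted p of at most 2.18e-05.

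**Figure D1:**
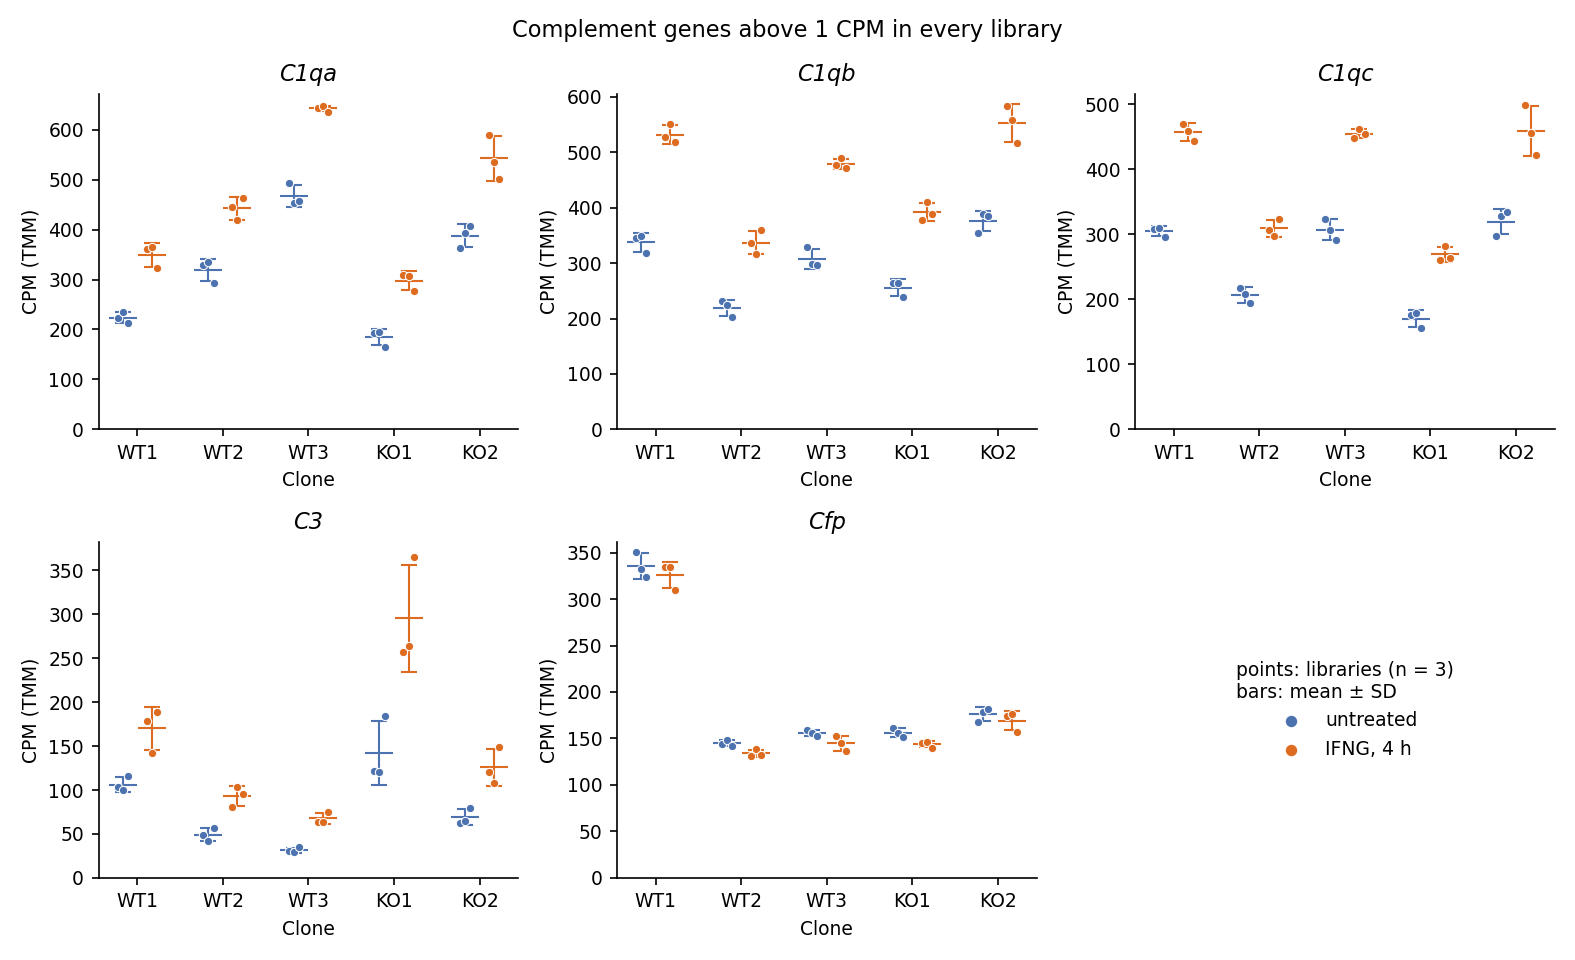
Level in CPM of C1qa, C1qb, C1qc, C3 and Cfp in each of the 30 libraries, by clone and treatment, with the group mean and SD. The treated libraries of every clone lie above its untreated libraries for the 3 C1q genes and C3, while the treated and untreated Cfp libraries lie at nearly the same height, between 310.1 and 350.4 CPM in WT1 and between 131 and 182 CPM in the other clones.

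The balance between the 3 chains differed from clone to clone. The ratio of C1qa to C1qb counts, which needs no scaling between libraries, was looked at after the levels had been seen and is given as a description. It was 0.663 ± 0.016 in untreated WT1 (SD, n = 3), 1.46 ± 0.03 in WT2, 1.52 ± 0.02 in WT3, 0.721 ± 0.023 in KO1 and 1.03 ± 0.02 in KO2. With IFNG it was 0.657 ± 0.031, 1.31 ± 0.02, 1.34 ± 0.02, 0.759 ± 0.056 and 0.981 ± 0.027 in the same order, so that WT2, WT3 and KO2 had lower ratios in all 3 treated libraries than in any untreated one. The mean moved by less in KO2 than in WT2 and WT3, and the treated and untreated libraries overlapped in WT1 and KO1. The ratio of C1qc to C1qb counts varied less, from 0.667 ± 0.011 in untreated KO1 to 0.999 ± 0.026 in untreated WT3.

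**Figure D2:**
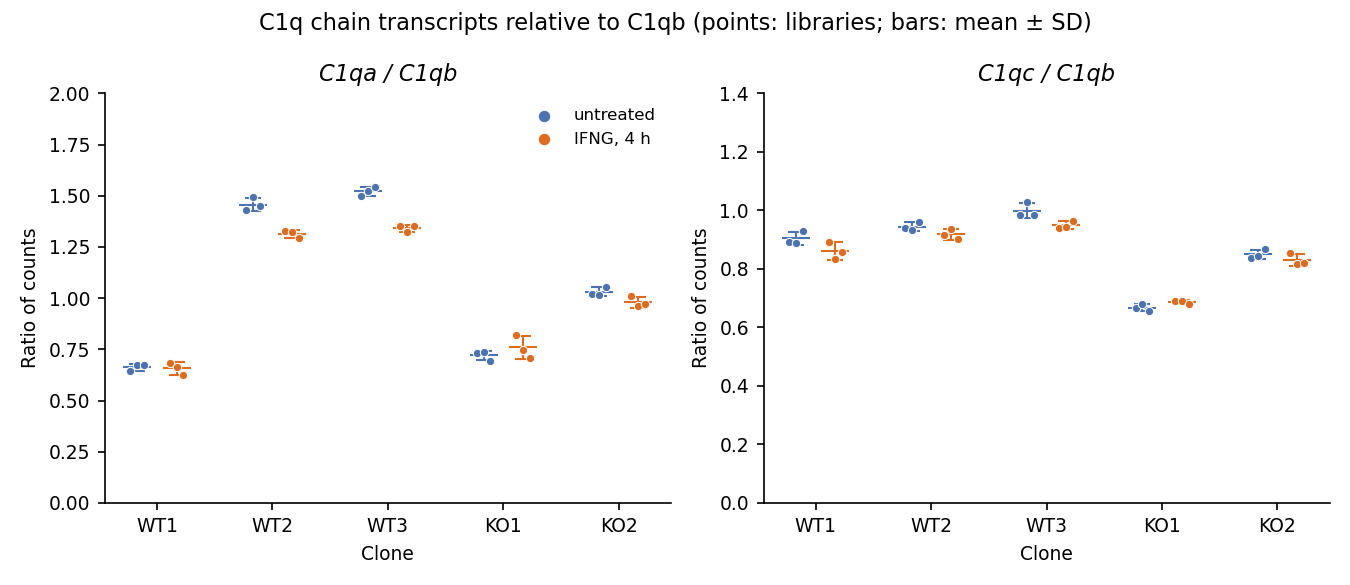
Ratio of C1qa to C1qb counts and of C1qc to C1qb counts in each library, by clone and treatment, with the group mean. For C1qa to C1qb, the libraries of WT1 and KO1 sit between 0.623 and 0.820, those of KO2 between 0.960 and 1.06, and those of WT2 and WT3 between 1.29 and 1.54.

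C3, the protein on which all complement pathways meet, rose in each clone. WT1 gave 104, 99.5 and 115 CPM untreated and 179, 143 and 189 CPM after IFNG. WT2 gave 48.7, 41.99 and 56.8 CPM untreated and 80.9, 103 and 95.1 CPM after IFNG. WT3 gave 30.2, 29.01 and 34.8 CPM untreated and 64.03, 63.9 and 74.7 CPM after IFNG. The treated WT3 libraries were still below every untreated WT1 library. KO1 gave 121, 121 and 184 CPM untreated and 257, 264 and 366 CPM after IFNG, the highest level of the 5 clones in both states. KO2 gave 62.8, 65.1 and 79.6 CPM untreated and 120.3, 108 and 149 CPM after IFNG. No clone had overlapping treated and untreated libraries. The ratio of treated to untreated means was 1.6 in WT1, 1.89 in WT2, 2.16 in WT3, 2.08 in KO1 and 1.82 in KO2. On the log2 scale the rise was 0.67 ± 0.09 (SE; adjusted p = 8.46e-05), 0.95 ± 0.09 (adjusted p = 1.21e-08), 1.12 ± 0.07 (adjusted p = 2.93e-10), 1.08 ± 0.15 (adjusted p = 8.84e-05) and 0.86 ± 0.10 (adjusted p = 1.22e-05) in that order.

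Cfp, which encodes properdin, did not rise in any clone. WT1 gave 350.4, 332 and 323 CPM untreated and 334, 334 and 310.1 CPM after IFNG, with overlap. WT2 gave 145, 148 and 142 CPM untreated and 131, 138 and 133 CPM after IFNG, with every treated library below every untreated one. WT3 gave 159, 155 and 152 CPM untreated and 153, 145 and 137 CPM after IFNG. The WT3 groups overlapped by a single library. KO1 gave 161, 156 and 152 CPM untreated and 146, 146 and 140.0 CPM after IFNG, again without overlap, and KO2 gave 168, 179 and 182 CPM untreated and 174, 176 and 157 CPM after IFNG. Every IFNG library lay below every UT library for 25.4% of the 12345 genes in WT2 and 26.2% in KO1, and for 17.6% in WT1, 25.4% in WT3 and 22% in KO2. The log2 change was -0.05 ± 0.06 in WT1 (SE; adjusted p = 0.65), -0.09 ± 0.05 in WT3 (adjusted p = 0.125), -0.09 ± 0.04 in KO1 (adjusted p = 0.154) and -0.06 ± 0.05 in KO2 (adjusted p = 0.485). In WT2 it was -0.10 ± 0.04 (adjusted p = 0.0468), a call that was lost by DESeq2 (adjusted p = 0.103), without either of 2 untreated libraries (adjusted p = 0.117 and 0.175) and without either of 2 treated ones (adjusted p = 0.174 and 0.0931). The WT2 call was also lost without the filter, with a minimum of 10 counts in every library and with 1 fit over all libraries. Without 1 treated library the WT3 change was -0.13 (adjusted p = 0.0173).

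C4b, the classical pathway's C4, was near the lowest readable level in untreated cells and rose in WT2 and WT3. WT2 had 7, 7 and 6 counts untreated and 67, 65 and 53 after IFNG, or 0.365, 0.295 and 0.377 CPM untreated and 3.92, 3.99 and 3.36 CPM after IFNG. WT3 had 10, 3 and 5 counts untreated and 41, 40 and 27 after IFNG, or 0.355, 0.129 and 0.278 CPM untreated and 1.70, 2.24 and 1.59 CPM after IFNG. These clones had no overlap between treatments. WT1 had 3, 10 and 9 counts untreated and 10, 6 and 11 after IFNG, and its groups overlapped. KO1 had 8, 14 and 11 counts untreated and 24, 17 and 12 after IFNG, at 0.331, 0.553 and 0.424 and 0.866, 0.898 and 0.533 CPM, overlapping narrowly. KO2 had 7, 9 and 4 counts untreated and 30, 12 and 9 after IFNG, at 0.243, 0.329 and 0.134 and 0.809, 0.383 and 0.450 CPM, with no overlap. The treated WT2 mean was 9.23 times the treated WT1 mean.

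The C4b rise was 3.46 ± 0.25 log2 units in WT2 (SE; edgeR adjusted p = 4.63e-10) and 2.81 ± 0.33 in WT3 (adjusted p = 1.61e-06). In KO2 it was 1.28 ± 0.42 (adjusted p = 0.035), and this call was lost by DESeq2 (adjusted p = 0.113), without either of 2 untreated libraries (adjusted p = 0.0853 and 0.146) and without 1 treated library (adjusted p = 0.242). In KO1 it was 0.83 ± 0.32 (adjusted p = 0.0725), and without 1 treated library 1.03 (adjusted p = 0.0330). In WT1 C4b did not pass the filter on low counts, and without the filter its change was 0.64 ± 0.48 (adjusted p = 0.523). The nearby copy C4a shares sequence with C4b: of all windows of 150 bases along the 5379-base C4b coding transcript, 8.26% also occur in C4a transcripts, and 35.2% of windows of 50 bases do. Only uniquely aligned fragments were counted, so the counts leave out fragments that align equally well to both genes. The C4a means were 0.607 and 0.612 CPM in WT1, 0.234 and 0.646 CPM in WT2, 0.284 and 0.738 CPM in WT3, 0.255 and 0.544 CPM in KO1, and 0.313 and 0.434 CPM in KO2, untreated and treated.

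C2, Cfb and Serping1 stayed low before and after IFNG, and no change in them passed a test, with or without the filter on low counts. C2, the partner of C4 in the classical enzyme, had 270 counts over the 30 libraries, between 0 and 22 in any library. Its largest library stood at 0.666 CPM. In the clones where it passed the filter its change was -0.21 ± 0.32 in WT1 (SE; edgeR adjusted p = 0.744) and 0.44 ± 0.34 in KO2 (adjusted p = 0.398). Cfb, factor B, had 70 counts in all, was at 0 in 10 libraries and passed the filter in no comparison between libraries. With counts summed per clone it passed it after IFNG, where the knockout clones minus the wild type gave 0.96 ± 1.02 (adjusted p = 0.765). Its highest group mean was 0.256 CPM, in untreated KO2 with 22 counts, and its libraries in WT2 before and in WT3 after treatment were all at 0. Reads over shared exons were counted for every gene they overlap, and the readthrough gene Gm20547 on the same strand covers 42.8% of the exon bases of C2 and 79.5% of those of Cfb, so part of these counts may belong to it. Serping1, C1 inhibitor, had 2 counts in all, 1 in an IFNG library of WT3 and 1 in an IFNG library of KO2. The other 28 libraries were at 0.

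**Figure D3:**
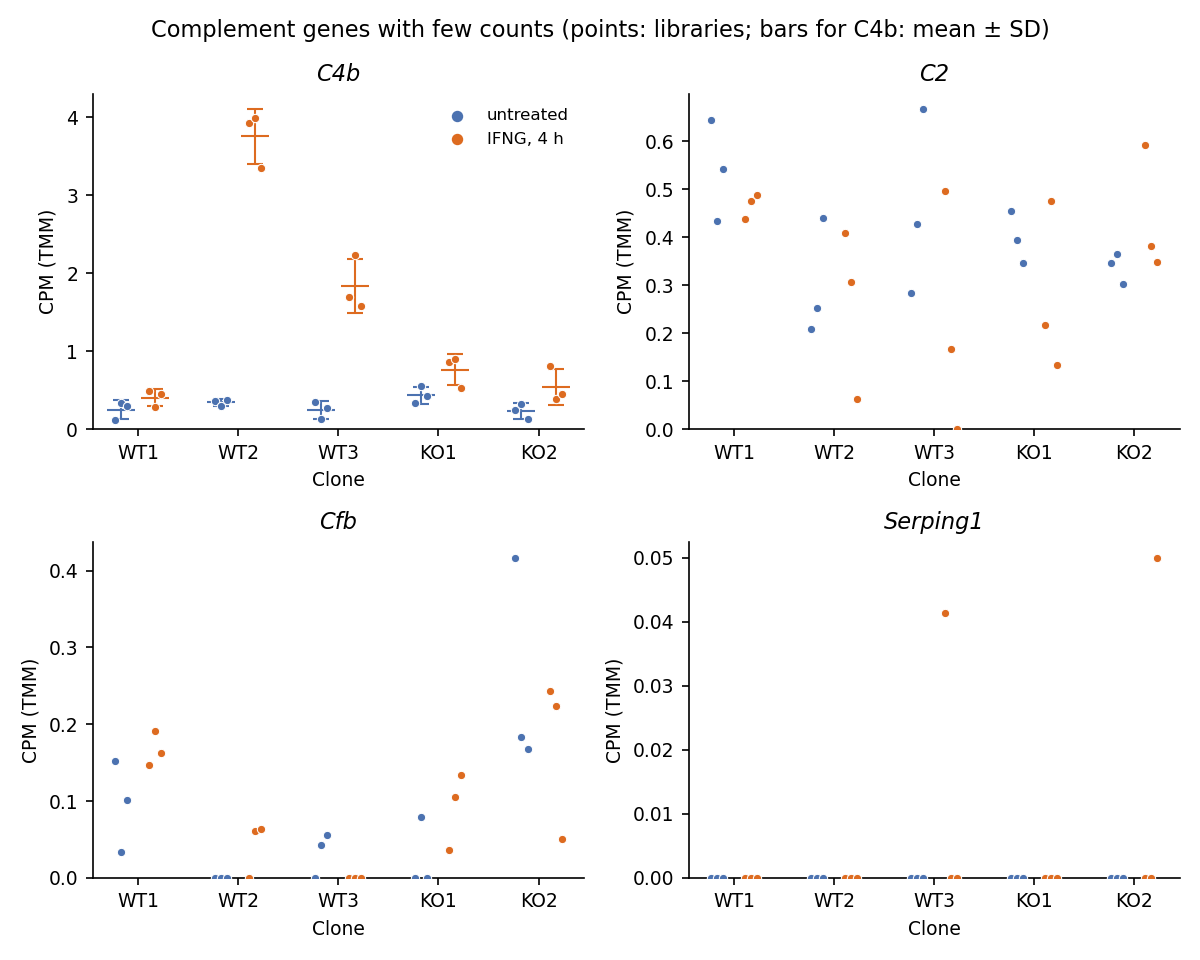
Level in CPM of C4b, C2, Cfb and Serping1 in each of the 30 libraries, by clone and treatment. C4b reaches 3.36 to 3.99 CPM in IFNG-treated WT2 and 1.59 to 2.24 CPM in IFNG-treated WT3 and is at most 0.898 CPM in the other groups, and C2, Cfb and Serping1 stay at or below 0.666 CPM in every library.

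Counted over the 9 genes, those that passed the test in WT1 were C1qa, C1qb, C1qc and C3, all higher, where 21.2% of all genes tested passed, 11.8% higher and 9.47% lower. In WT2 they were these and C4b, higher, with Cfp lower, against 34.5% of all genes, 17.4% higher and 17% lower. In WT3 they were C1qa, C1qb, C1qc, C3 and C4b, all higher (36.1% of all genes, 18.6% higher and 17.5% lower). In KO1 they were the C1q genes and C3 (29.4% of all genes, 16.2% higher and 13.2% lower), and in KO2 the C1q genes, C3 and C4b (27.1% of all genes, 13.9% higher and 13.2% lower). Of the 9 genes, 5 had at least 10 counts in every library, the C1q genes, C3 and Cfp. Their median log2 change was 0.63 in WT1, 0.59 in WT2, 0.58 in WT3, 0.69 in KO1 and 0.52 in KO2, where the median of all genes tested lay between -0.01 and 0.00. Of the other 4 genes, C4b and C2 passed the filter in some comparisons, and Cfb and Serping1 in none between libraries.

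With the clones of a genotype pooled, differences between clones entered the spread and fewer of the 9 genes passed. In the 3 wild-type clones together C1qb rose by 0.65 ± 0.13 (SE; edgeR adjusted p = 6.11e-04), C1qc by 0.58 ± 0.12 (adjusted p = 0.00106) and C1qa by 0.51 ± 0.19 (adjusted p = 0.0464), where 28.6% of all genes passed, 14.8% higher and 13.9% lower. C3 changed by 0.82 ± 0.31 (adjusted p = 0.0536) and Cfp by -0.07 ± 0.27 (adjusted p = 0.906). C4b, C2, Cfb and Serping1 did not pass the filter, and without it C4b rose by 2.78 ± 0.47 (adjusted p = 1.21e-04). The C1qa call was lost without the filter and also without WT2 (adjusted p = 0.237), and the C3 change passed without WT1 (1.01, adjusted p = 6.85e-05). In the 2 knockout clones together C1qb rose by 0.59 ± 0.15 (adjusted p = 0.00698), C3 by 1.01 ± 0.33 (adjusted p = 0.0306) and C4b by 0.99 ± 0.31 (adjusted p = 0.0241), where 30.7% of all genes passed, 15.8% higher and 14.8% lower. C1qc changed by 0.58 ± 0.23 (adjusted p = 0.0751), C1qa by 0.56 ± 0.27 (adjusted p = 0.135) and Cfp by -0.08 ± 0.07 (adjusted p = 0.442), and C2, Cfb and Serping1 did not pass the filter. Without KO2, which leaves KO1 alone, the C4b call was lost (0.83, adjusted p = 0.0725). With clone as a term in the model, 5 of the 9 genes passed in the wild-type clones, the C1q genes and C3 higher and Cfp lower (-0.08, adjusted p = 0.0168), and 5 in the knockout clones, the C1q genes, C3 and C4b, all higher. More of all genes passed with that term too. They were 6190 of 13423 in the wild-type clones (3003 higher, 3187 lower) and 5564 of 13851 in the knockout clones (2769 higher, 2795 lower).

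**Figure D4:**
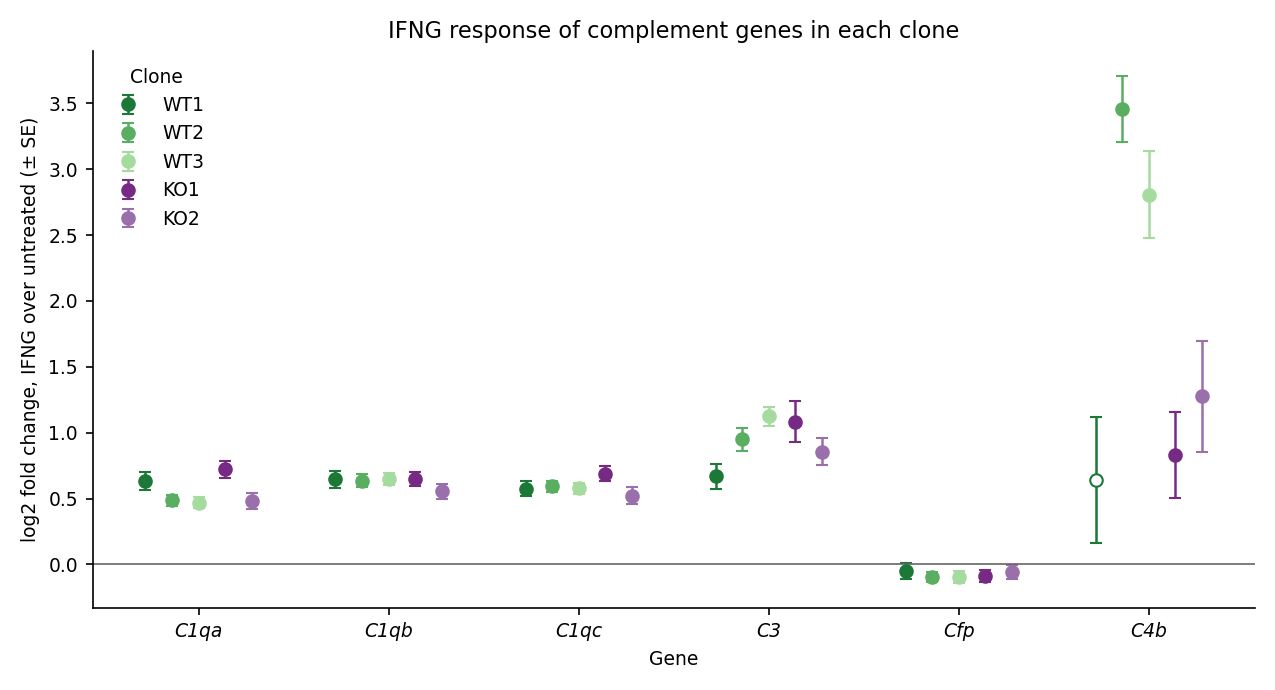
Log2 change with IFNG (± SE) of C1qa, C1qb, C1qc, C3, Cfp and C4b, in each of the 5 clones. The open point, C4b in WT1, comes from the fit without the filter on low counts. The C1q genes sit between 0.47 and 0.72 and C3 between 0.67 and 1.12, and Cfp lies just under 0 in all 5. Among its filled points, C4b spreads from 0.83 in KO1 to 3.46 in WT2.

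The IFNG response itself was compared between genotypes with a treatment by genotype term. None of the 9 genes passed by edgeR or by DESeq2, 1 had an unadjusted p under 0.05 (C4b), and 1.02% of all genes passed by edgeR, 0.679% higher and 0.336% lower. The difference, knockout minus wild type, was 0.06 ± 0.07 log2 units for C1qa (SE), -0.05 ± 0.05 for C1qb, 0.01 ± 0.05 for C1qc, 0.07 ± 0.14 for C3 and -0.00 ± 0.04 for Cfp. For C2 it was 0.36 ± 0.44, and Cfb and Serping1 did not pass the filter. For C4b it was -1.58 ± 0.44 (adjusted p = 0.0871), and without WT1 it was -2.16 (adjusted p = 2.85e-04). Between the 5 clones, with no regard to genotype, the response of 1 of the 9 genes differed, C4b (adjusted p = 5.29e-04), where 3.68% of all genes did. That call was lost without WT2 (adjusted p = 0.0773). C1qa had an unadjusted p of 0.0492 and an adjusted p of 0.404, and C1qb, C1qc, C2, C3 and Cfp had adjusted p-values of 0.780 to 0.950, while Cfb and Serping1 did not pass the filter.

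In untreated cells none of the 9 genes differed between knockout and wild-type clones by edgeR or by DESeq2, where 26.6% of all genes passed by edgeR, 12.2% higher and 14.4% lower. C3 had an unadjusted p under 0.05 and stood at 0.75 ± 0.34 log2 units, knockout minus wild type (SE; adjusted p = 0.118), and without WT1 at 1.4 (adjusted p = 3.91e-04) and without KO2 at 1.18 (adjusted p = 0.0465). C1qa (-0.24 ± 0.25), C1qb (0.13 ± 0.14), C1qc (-0.16 ± 0.18), C2 (-0.24 ± 0.24) and Cfp (-0.36 ± 0.23) had adjusted p-values of 0.273 to 0.563, and C4b, Cfb and Serping1 did not pass the filter. Without KO2 C1qa was lower by 0.88 (adjusted p = 0.0243) and C1qc by 0.69 (adjusted p = 0.00706), and without WT1 Cfp was higher by 0.15 (adjusted p = 0.0216). After IFNG, 2 of the 9 passed, where 23.9% of all genes did: C3 was higher in the knockout clones by 0.94 ± 0.30 (adjusted p = 0.0314) and C4b lower by 1.57 ± 0.53 (adjusted p = 0.0403), with 10.9% of all genes higher and 13% lower. C1qa (-0.19 ± 0.20), C1qb (0.07 ± 0.14), C1qc (-0.16 ± 0.16) and Cfp (-0.36 ± 0.24) had adjusted p-values of 0.290 to 0.729, and C2, Cfb and Serping1 did not pass the filter.

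Both of these calls were lost when certain single clones were left out. Among those fits the difference was smallest without KO1 for C3 and without WT2 for C4b. C3 was at 0.83 without WT2 (adjusted p = 0.132), 0.68 without WT3 (adjusted p = 0.146) and 0.19 without KO1 (adjusted p = 0.787). C4b was at -0.75 without WT2 (adjusted p = 0.285), -1.61 without WT3 (adjusted p = 0.0890), -1.80 without KO1 (adjusted p = 0.168) and -1.34 without KO2 (adjusted p = 0.225). Without KO2, C1qa (-0.68, adjusted p = 0.0423) and C1qc (-0.59, adjusted p = 0.0145) were lower, and without WT1 Cfp was higher by 0.16 (adjusted p = 0.0380). With counts summed to 1 sample per clone neither C3 (adjusted p = 0.539) nor C4b (adjusted p = 0.558) passed. In an exact two-sided permutation test over the mean log2 levels of the 5 clones, which cannot go below p = 0.1, the difference was 0.90 for C3 (p = 0.3) and -0.87 for C4b (p = 0.4) after IFNG and 0.84 for C3 before it (p = 0.4). WT1 reached 143 to 189 CPM of C3 after IFNG, above the 108 to 149 CPM of KO2 but for 1 library of each. The summed level of the 10 macrophage markers was 4679 to 6064 CPM in untreated wild-type libraries and 6449 to 7231 CPM in untreated knockout libraries, and 4266 to 5489 and 6179 to 6659 CPM after IFNG. The part of this in the levels of C3 and C4b was not tested.

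Among the untreated wild-type clones 5 of the 6 genes tested differed (edgeR F test of the 2 clone terms). They were C1qa, C1qb, C1qc, C3 and Cfp, where 59.5% of all genes tested passed. C2 did not pass (adjusted p = 0.168), and C4b, Cfb and Serping1 did not pass the filter. The highest wild-type clone mean was 2.09 times the lowest for C1qa (WT3 over WT1), 1.54 times for C1qb, 1.49 times for C1qc, 3.39 times for C3 (WT1 over WT3) and 2.31 times for Cfp (WT1 over WT2). Over all 5 clones the span was 2.54 times for C1qa, 1.72 times for C1qb, 1.88 times for C1qc, 4.54 times for C3 and 2.31 times for Cfp. For Cfp the span came from WT1, since the other 4 clones lay between 145 ± 3.2 and 176 ± 7.6 CPM and WT1 stood at 335 ± 14 CPM (mean ± SD, n = 3).

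The other complement genes numbered 50, of which 18 reached 1 CPM in some group mean, and none of the 7 genes of the terminal pathway did. Of those tested, 9 of 22 passed in WT1 (7 higher, 2 lower) where 21.2% of all genes did, 11 of 18 in WT2 (6 higher, 5 lower) against 34.5%, and 13 of 20 in WT3 (8 higher, 5 lower) against 36.1%. In KO1 it was 8 of 20 (7 higher, 1 lower) against 29.4%, and in KO2 11 of 21 (7 higher, 4 lower) against 27.1%. The proteases that act with C1q were among those that rose. C1s1, which encodes the protease C1s, rose from a mean of 0.215 to 5.67 CPM in WT1, a log2 change of 4.71 ± 0.25 (SE), and by 4.90 ± 0.37 in WT2, 6.17 ± 0.55 in WT3, 4.44 ± 0.25 in KO1 and 5.55 ± 0.30 in KO2. Its untreated means were 0.0805 CPM in WT2, 0.0328 CPM in WT3, 0.419 CPM in KO1 and 0.0689 CPM in KO2. Those of WT2, WT3 and KO2 lay below the lowest readable signal, so the size of these changes is uncertain. C1s2, the duplicate of C1s1, rose by 1.19 ± 0.18 in WT1 and by 1.34 to 1.75 in the other clones. C1ra, which encodes C1r, rose by 0.71 ± 0.06 in WT1, 0.49 ± 0.05 in WT2, 0.72 ± 0.05 in WT3, 0.77 ± 0.07 in KO1 and 0.82 ± 0.07 in KO2.

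Masp1, a protease of the lectin pathway, rose by 0.88 ± 0.12 in WT1, 0.78 ± 0.16 in WT2, 1.2 ± 0.2 in WT3, 1.58 ± 0.15 in KO1 and 1.59 ± 0.12 in KO2 (log2, SE). C5ar1, the receptor for C5a, fell in each clone, by 0.88 ± 0.07 in WT1, 1.04 ± 0.04 in WT2, 1.23 ± 0.05 in WT3, 0.77 ± 0.06 in KO1 and 0.84 ± 0.05 in KO2. All of these had an adjusted p under 0.05 by edgeR. With the clones pooled, 9 of 19 tested passed in the wild type (7 higher, 2 lower; 28.6% of all genes) and 9 of 21 in the knockout clones (7 higher, 2 lower; 30.7% of all genes).

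**Figure D5:**
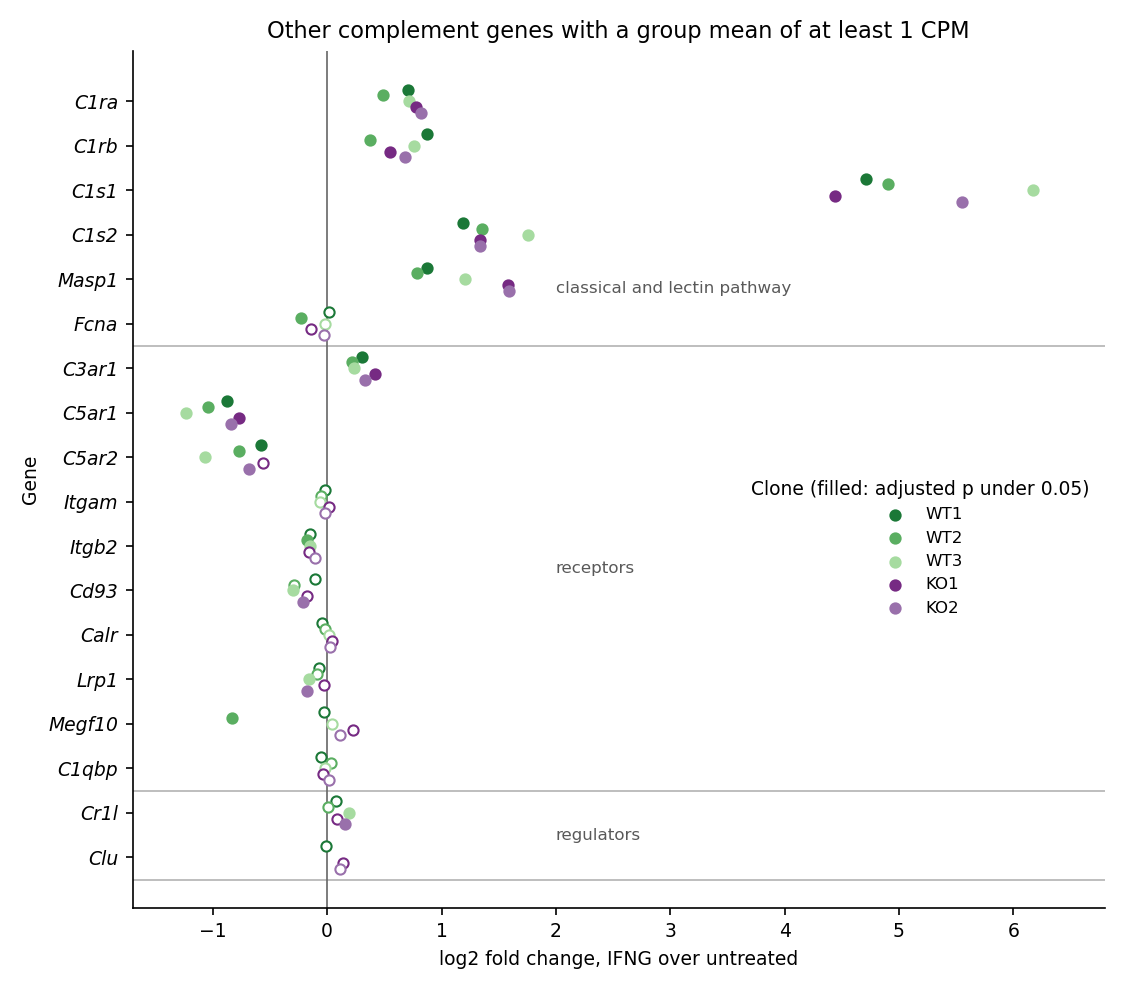
Log2 change with IFNG of the 18 other complement genes that reached 1 CPM in some group mean, in each clone. C1s1 stands far to the right at 4.44 to 6.17, C1s2 and Masp1 follow, and C5ar1 lies on the left at -0.77 to -1.23.

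Between genotypes, 6 of 18 tested passed in untreated cells (2 higher and 4 lower in the knockout clones), near the 26.6% of all genes. C1ra was lower by 0.73 ± 0.06 log2 units (SE; edgeR adjusted p = 6.20e-07), with 33.2 to 36.8 CPM in the wild-type clone means and 22.95 and 19.2 CPM in KO1 and KO2. C1rb, its duplicate, was lower by 0.68 ± 0.11, Masp1 by 0.62 ± 0.16 and the integrin chain Itgb2 by 0.27 ± 0.08, while Itgam, the partner of Itgb2 in complement receptor 3, was higher by 0.30 ± 0.08 and Calr, which encodes calreticulin, by 0.20 ± 0.04. After IFNG 5 of 21 passed (3 higher, 2 lower), near the 23.9% of all genes, with C1ra lower by 0.57 ± 0.05 (adjusted p = 3.10e-06) and C1rb by 0.74 ± 0.09. Itgam was higher by 0.34 ± 0.09, Calr by 0.25 ± 0.04 and the phagocytic receptor Megf10 by 0.74 ± 0.25. These tests take the libraries of a genotype as replicates: with counts summed to 1 sample per clone none of the calls held, before IFNG (adjusted p = 0.242 to 0.502) or after it (adjusted p = 0.254 to 0.534). Leaving out each clone in turn kept the C1ra, C1rb and Calr calls in both states, and those of Itgam, Itgb2, Masp1 and Megf10 were lost without at least 1 clone. Itgam is 1 of the 10 macrophage markers. Near-identical duplicates such as C1ra and C1rb, or C1s1 and C1s2, may share fragments that unique alignment leaves out. Among the untreated wild-type clones 18 of 20 differed, where 59.5% of all genes did, Cd93, Clu, Lrp1, Itgam, C1qbp and C5ar1 among them.

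Over the 30 libraries, C1qb and C1qc levels ran together most closely (Pearson r = 0.91 on log2 CPM), C1qa and C1qc less so (0.74) and C1qa and C1qb less again (0.56), while C1qa and C3 had r = -0.39 and C3 and Cfp 0.23. These values describe 30 libraries that share 5 clones and 2 treatments. Among 12345 genes, the closest in pattern were Sptlc2 (r = 0.94) and Gda (0.91) for C1qa, Jun and Exoc3l4 (both 0.92) for C1qb, and Ap1b1 (0.91) and Notch1 (0.90) for C1qc. They were Nfkb2 (0.96) and Rapgef2 (0.96) for C3, and Serpinf1 (0.96) and Angptl2 (0.96) for Cfp.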

How the data were processed

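PolyA RNA from 5 J774A.1 clones, untreated or treated with IFNG, was sequenced as paired ends. The authors trimmed reads, aligned them to mm10 with HISAT2 (version 2.1.0), kept uniquely aligned fragments, merged technical repeats with SAMtools (version 1.10) and deposited raw counts per gene from featureCounts (version 1.6.2). Per the file headers, counting was over exons of Gencode vM18 by strand, and a fragment overlapping several genes was counted for each. The deposited counts of 30 libraries in 1 table were used, and 13 of 13 further tables held the same counts. Libraries were assigned to clone and treatment by the column names, which carry no replicate number. The names of WT2 and WT3 columns were resolved through the tables of those clones alone. RNA input and adapter type varied, and the sources used here do not assign them to libraries, so they could not be checked against the groups.

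Tests were edgeR quasi-likelihood tests (edgeR 4.0.16, R 4.3.3) with trimmed mean of M-values scaling, filterByExpr (minimum count 10) and Benjamini-Hochberg adjustment over all genes tested at 0.05, with SE taken as the absolute log2 change over the root of F. The scripts were tested on simulated data with known changes. Within a clone only its 6 libraries entered, and all 30 entered the tests between responses. CPM used scaling factors from 14870 genes, and the clone means and correlations used log2(CPM + 0.5). Alternatives were DESeq2 (1.42.0), its size factors, no filter or a minimum of 10 counts in every library, 1 fit over all libraries, clone as a term, counts summed per clone, and leaving out each library or clone. The floor of 3 counts covers counting error only, while SD and SE are over libraries.

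All 9 members are named in the comparisons of level and response, with those that did not pass the filter. Of 50 other complement genes, those named passed the test with a group mean of at least 1 CPM, at most 6 per comparison by the size of the change, and 1 further gene of the list is not reported here. The members, lists and markers were chosen with earlier results of these data known. Marker lists for macrophages, T cells, B cells, neutrophils, fibroblasts, epithelium and hepatocytes were summed. T cells had 1 of 5 markers with a mean of at least 1 CPM (Lck), neutrophils 1 of 6 (S100a8), fibroblasts 1 of 5 (Pdgfra) and B cells 0 of 5, with 0 of 4 for epithelium and for hepatocytes.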

Additional observations from a re-analysis of the deposited data

Results flagged for a closer look

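Of the results on complement genes, 5 were set aside because groups differed in the same contrast by a test of the difference itself. For the response between genotypes they were 0 of 7 members and 1 of 23 other complement genes tested, where 1.02% of all genes passed. Between the 5 clones they were 1 of 7 members and 3 of 23 other complement genes tested, where 3.68% of all genes passed. Masp1, which encodes a lectin pathway protease, rose more with IFNG in the knockout clones than in the wild-type clones, by 0.63 ± 0.14 log2 units (SE; edgeR adjusted p = 0.0167). This test takes the libraries of a genotype as replicates, and no version with 1 value per clone is given for it. Masp1 was higher in the treated libraries of all 5 clones, with untreated means of 2.07 to 2.13 CPM in the knockout and 2.44 to 3.84 CPM in the wild-type clones and treated means of 5.67 to 6.68 CPM over all clones. The lower untreated level in the knockout clones did not pass with counts summed to 1 sample per clone (edgeR adjusted p = 0.409).

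The other results came from the test of the response between the 5 clones. The adjusted p was 5.29e-04 for C4b, 0.00115 for C5ar1, 0.0297 for Masp1 and 0.0456 for C1ra. C4b ranged from 0.83 log2 units in KO1 to 3.46 in WT2 among the clones where it was tested, C5ar1 from -0.77 in KO1 to -1.23 in WT3, and Masp1 from 0.78 in WT2 to 1.59 in KO2. C1ra rose by 0.49 in WT2 and by 0.82 in KO2. No library stood apart by Dixon's test in the 32 groups of 6 or 9 libraries tested. These groups pool all clones of a genotype, so differences between clones widen the range. A library apart only from its own clone could be missed.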

How the results depend on the processing

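No paired analysis was possible because the columns carry no replicate numbers, and for the same reason the replicate block and leaving out a replicate number were not run. Leaving out each library among the untreated wild-type clones and taking the coding transcript length for levels per kb were chosen after seeing the data. Of the tests of single members under an alternative, 681 kept direction and side of the threshold, 20 gained and 26 lost it, and 22 reversed. All 90 group levels in CPM moved by less than 1 SD with DESeq2's size factors, and 27 of 90 levels per kb moved by more with the other length.

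The number of the 9 genes past the threshold went from 3 to 5 with clone as a term in the pooled wild type and from 3 to 5 in the pooled knockout clones. Over all genes it went from 3840 to 6190 and from 4246 to 5564. The following counts are again of the 9 genes. For knockout against wild type after IFNG it went from 2 to 1 without a filter, to 1 with 10 counts in every library and to 0 with counts summed per clone. For the difference in response it went from 0 to 1 without a filter. Between the 5 clones it went from 1 to 0 by DESeq2, which gave C4b no adjusted p (unadjusted p = 1.62e-07), to 0 with 10 counts in every library, where C4b was not tested, and to 2 without a filter, where C3 passed (adjusted p = 7.71e-07 against 0.780). The cause of the C3 change was not tested.

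Leaving out 1 library or clone gave 4 to 4 genes in WT1, 5 to 6 in WT2, 5 to 6 in WT3, 4 to 5 in KO1, 4 to 5 in KO2, 2 to 5 in the pooled wild type and 4 to 5 in the pooled knockout clones. It gave 0 to 3 for knockout against wild type before and 0 to 3 after IFNG, 0 to 1 for the difference in response, 0 to 1 between the 5 clones and 5 to 5 among untreated wild-type clones.

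The Cfp difference in response, near 0, turned to 0.0032 by DESeq2, 0.0030 with its size factors and 0.00062 without a filter. Leaving out each clone in turn turned further values that had not passed the threshold, given here as ranges of log2 differences, knockout minus wild type. The difference in response ran from -0.060 to 0.083 for C1qc, -0.045 to 0.167 for C1qa, -0.23 to 0.79 for C2, -0.061 to 0.179 for C3 and -0.036 to 0.020 for Cfp. The difference in level ran, untreated and then treated, from -0.19 to 0.38 and -0.19 to 0.29 for C1qb, -0.69 to 0.23 and -0.59 to 0.17 for C1qc, -0.88 to 0.21 and -0.68 to 0.18 for C1qa, and -0.57 to 0.15 and -0.59 to 0.16 for Cfp.

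Over all genes, the number past the threshold moved by over 1.5 times in these settings. It was 3840 in the pooled wild type and 6190 with clone as a term. For knockout against wild type it was 3689 untreated and 3258 treated, 1 and 1 with counts summed per clone, 6472 and 5992 without WT1, and 1674 and 1411 without KO1. For the difference in response it was 151, 384 without a filter, 564 without WT1, 37 without WT2, 82 without WT3 and 21 without KO1. Between the 5 clones it was 547, 919 without a filter and 319 without WT3. Counts near the floor limit C2, Cfb, Serping1, untreated C4b and untreated C1s1.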
